A study of Drosophila melanogaster with 2 samples.

Results

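The Polycomb and Trithorax group genes are a set of 38 genes that encode the antagonistic chromatin regulators of the fly, 23 on the Polycomb side and 15 on the Trithorax side, out of 13968 protein-coding genes on the 7 main chromosomes. They were listed by function, with earlier results of these data known. The protein mapped was pebbled (peb, also called hindsight), a zinc finger transcription factor, by chromatin immunoprecipitation and sequencing (ChIP-seq) of whole Drosophila melanogaster embryos. The embryos carried an inserted peb-eGFP transgene and were collected over the interval from 0 to 24 h of development, and an anti-GFP antibody was used throughout. There was 1 such group with 2 biological replicates and no second genotype, stage or treatment. Every value is therefore a ChIP-seq signal at a site, averaged over all cells and stages of the collection, and not an amount of protein. A gene was given a peak when the peak's summit lay in the gene body or within 2000 bp of it on the dm6 assembly. The signal of a peak is the authors' own value, and serves only to order the peaks of 1 list. Each peak also has a score, a scaled irreproducible discovery rate in which 830 stands for a rate of 0.01, and the lists used for the counts are those thresholded at 830. The joint list of both replicates held 2845 peaks, the list of replicate 1 held 1418 and that of replicate 2 held 2054. These lists hold no read counts, so the depth is unknown and no counting interval could be given.

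Polycomb group proteins keep genes, among them the homeotic genes, in a silent state once it has been set, and Trithorax group proteins oppose them and keep genes active. PRC1 and PRC2 are the main Polycomb complexes: PRC2 methylates histone H3 and PRC1 binds that mark and ubiquitylates histone H2A. The Trithorax side holds methyltransferases of the COMPASS family, nucleosome remodellers of the BAP and PBAP complexes and the kinase module of Mediator. In Drosophila the complexes are brought to Polycomb response elements by DNA binding proteins such as pho. The genes themselves are broadly transcribed in the embryo.

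In the joint list, 20 of the 38 genes had a peak in reach (52.6%), against 22.9% of all protein-coding genes by the same rule. Peaks were found at ph-p, ph-d, Pc, Psc, E(z), Caf1-55, Pcl, jing, phol, Sfmbt, lolal and calypso on the Polycomb side. On the Trithorax side they were found at trx, trr, Utx, ash1, brm, osa, kis and skd. The signals ranged widely, up to 892 beside ash1 and 869 in ph-p, and 8 of the 20 genes had their strongest peak in the top 10% of the list. Of the 10 strongest of their peaks, 6 lay nearer to the start of another gene than to that of the member. That count was not made over all genes with a peak.

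The sequences under 10 of these summits are shown because they cover the strongest peaks, a peak in the body of a gene, a peak missing from the thresholded lists and the 6-base word described further on. Each is the plus strand of dm6 from 75 bp before to 75 bp after the summit, 151 bases written 5′ to 3′. Capitals mark ACAGTG or its reverse complement CACTGT. They are in order ash1 (chr3L:19590540-19590690), ph-p (chrX:2137276-2137426), Caf1-55 (chr3R:15229469-15229619), brm (chr3L:15982936-15983086), osa (chr3R:17704329-17704479), kis (chr2L:223456-223606), ph-d (chrX:2123971-2124121), Sfmbt (chr2L:13176802-13176952), skd (chr3L:21009752-21009902) and the trx intron (chr3R:14283815-14283965).
ash1: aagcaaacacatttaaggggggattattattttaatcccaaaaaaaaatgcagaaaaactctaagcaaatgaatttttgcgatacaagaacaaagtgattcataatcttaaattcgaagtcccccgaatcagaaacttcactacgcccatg
ph-p: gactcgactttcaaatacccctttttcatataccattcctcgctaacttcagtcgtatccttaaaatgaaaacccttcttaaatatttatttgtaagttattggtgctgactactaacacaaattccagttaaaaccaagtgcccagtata
Caf1-55: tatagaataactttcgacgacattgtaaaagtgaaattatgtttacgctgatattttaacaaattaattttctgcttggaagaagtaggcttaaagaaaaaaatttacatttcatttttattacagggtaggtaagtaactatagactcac
brm: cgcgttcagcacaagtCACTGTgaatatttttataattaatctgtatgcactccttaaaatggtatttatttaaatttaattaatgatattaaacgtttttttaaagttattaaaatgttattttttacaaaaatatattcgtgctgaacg
osa: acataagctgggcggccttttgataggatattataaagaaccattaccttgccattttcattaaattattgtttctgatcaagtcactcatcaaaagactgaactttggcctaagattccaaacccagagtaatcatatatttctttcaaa
kis: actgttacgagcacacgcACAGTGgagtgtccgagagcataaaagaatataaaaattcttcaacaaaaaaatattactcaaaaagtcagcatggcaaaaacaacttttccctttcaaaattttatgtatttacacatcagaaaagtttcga
ph-d: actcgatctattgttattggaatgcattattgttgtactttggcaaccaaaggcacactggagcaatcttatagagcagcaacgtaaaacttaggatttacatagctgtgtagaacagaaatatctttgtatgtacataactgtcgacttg
Sfmbt: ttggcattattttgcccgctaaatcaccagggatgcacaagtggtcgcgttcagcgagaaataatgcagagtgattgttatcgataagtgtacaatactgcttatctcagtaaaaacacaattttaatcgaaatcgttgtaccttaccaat
skd: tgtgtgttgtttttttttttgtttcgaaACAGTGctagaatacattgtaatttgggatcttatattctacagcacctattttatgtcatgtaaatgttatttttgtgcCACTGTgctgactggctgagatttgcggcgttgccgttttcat
trx: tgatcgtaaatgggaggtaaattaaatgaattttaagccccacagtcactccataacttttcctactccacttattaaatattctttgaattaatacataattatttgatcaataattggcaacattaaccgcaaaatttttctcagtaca
The word stood once in the windows of brm and kis, 2 times in that of skd and in none of the other 7. The brm window held an exact inverted repeat with arms of 10 bp near its ends (CGTTCAGCAC on the left), and the longest such repeat in the other windows shown had arms of 6 to 9 bp.

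**Figure D1:**
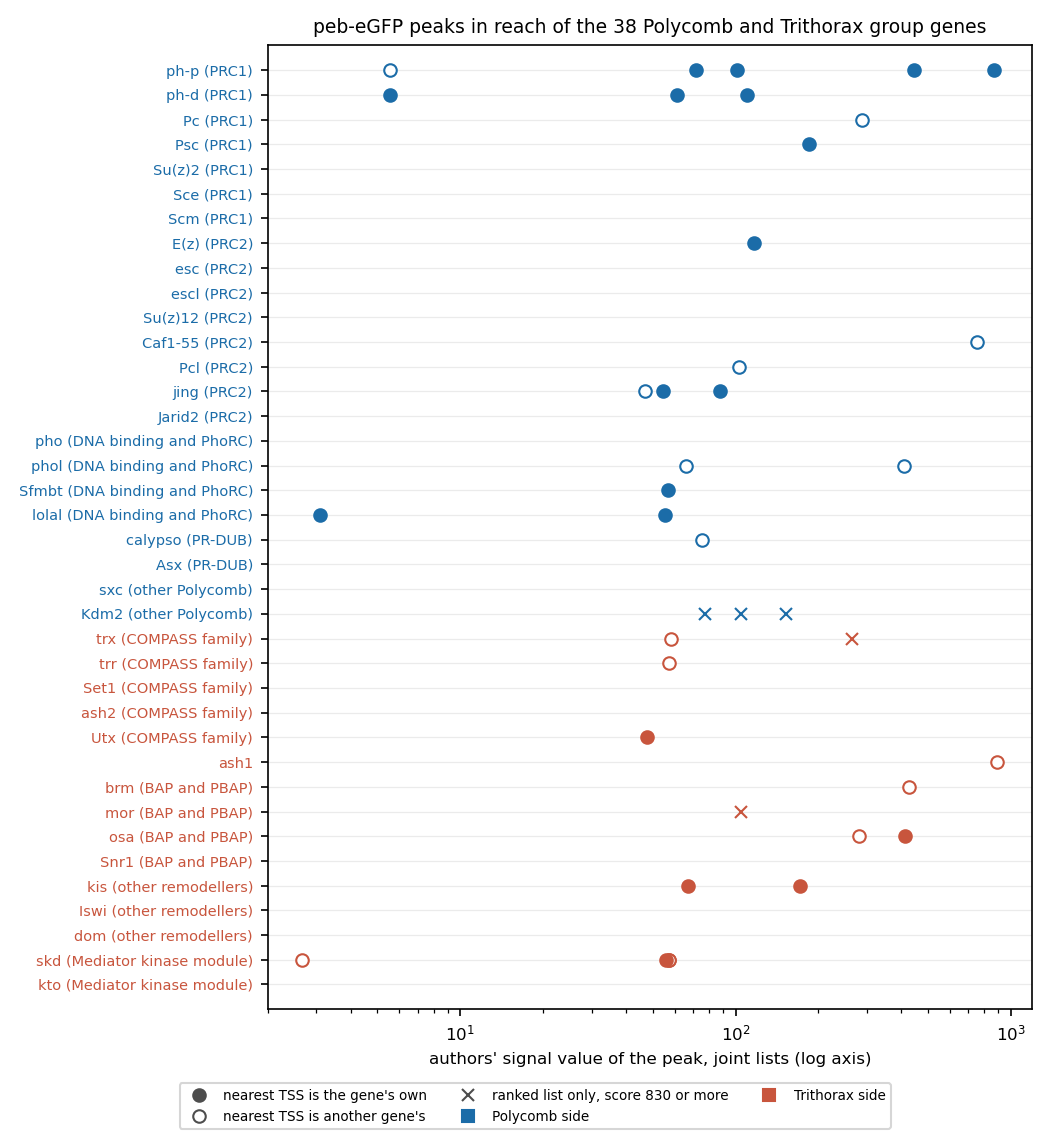
Signal value (log axis) of each joint-list peak in reach of the 38 genes, 1 line per gene with its complex. Filled circles are peaks whose nearest start (TSS) is the gene's own, open circles those nearest another gene's, and crosses are ranked peaks with a score of 830 or more that the thresholded lists used here do not hold; the 2 highest circles are ash1 at 892 and ph-p at 869.

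Among the genes of PRC1, 4 of 7 had a joint peak. The strongest was in ph-p, which with its tandem neighbour ph-d encodes the polyhomeotic proteins. The peak lay in an intron of ph-p (chrX:2137202-2137513), 496 bp upstream of an internal TSS. Its signal was 869 in the joint list, 398 in replicate 1 and 476 in replicate 2, rank 4 of the joint list. A further ph-p peak had its summit in the 5′ UTR, 491 bp downstream of a TSS (chrX:2137730-2138027), with 446 in the joint list, 206 in replicate 1 and 246 in replicate 2. Inside the gene there were also peaks of 101 (37.6 in replicate 1, 64.7 in replicate 2) and 71.7 (35.7 and 37.3), at 1298 and 2233 bp from the nearest TSS. Replicate 1 held no thresholded peak at the peak of 101, and both replicates held one at the other 3.

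At ph-d, the other copy, the values were lower. A peak 760 bp upstream of its TSS (chrX:2124020-2124110) had a signal of 110 in the joint list, 37.3 in replicate 1 and 70.4 in replicate 2. A peak in the gene, 401 bp upstream of an internal TSS, had 61.4, with 20.6 in replicate 1 and 36.8 in replicate 2, and was in the thresholded list of neither replicate alone. The remaining peak, of 5.57, overlapped the peak of 110 and is in reach of both genes. The sequence under these peaks was compared between the copies. In windows of 301 bp, the best local alignment of the strongest ph-p peak to the ph-d copy held 57 identical bases of 64 aligned columns (89.1%), all 87 bp or more from the summit. The ph-p peak of 446 aligned over 94 columns (77.7% identical), 57 bp or more from its summit. The ph-d peak of 110 aligned over 159 columns (70.4%) to a stretch beside the summit of the ph-p peak of 446, and the peak of 5.57 over 155 columns (82.6%). How the authors handled reads that fit both copies is not stated in the labels or headers, so these values carry that uncertainty.

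**Figure D2:**
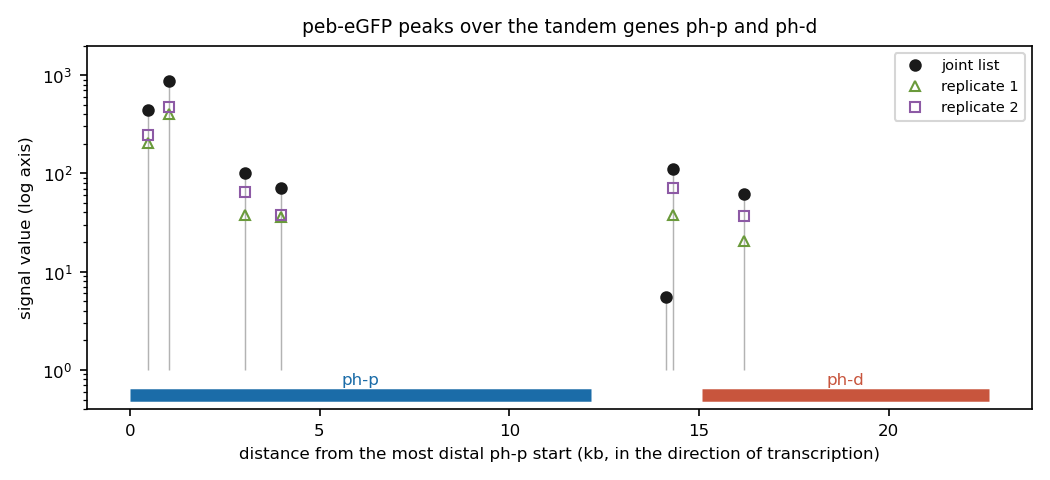
Signal value (log axis) of the joint peaks over ph-p and ph-d against distance in kb from the most distal ph-p start, with the overlapping peak of each replicate. Bars at the base are the gene bodies, and the highest values stand near the start of ph-p (869 and 446), against 110 upstream of ph-d.

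Pc encodes the chromodomain protein that reads the mark left by PRC2. Its only peak lay downstream of the gene, 13451 bp from its TSS, in an intron of CG11309 and 89 bp downstream of a CG11309 TSS (chr3L:21304476-21304663). The signal was 288 in the joint list, 87.7 in replicate 1 and 194 in replicate 2. Psc, a RING finger subunit, held an intronic peak 5081 bp from its TSS (chr2R:12975521-12975652) with 184 in the joint list, 60.2 in replicate 1 and 123 in replicate 2. Both peaks were thresholded in both replicates. Su(z)2, a relative of Psc, had no joint peak, but the list of replicate 1 held 2 (36.9 and 33.6), and its best joint ranked peak had a score of 801, short of the threshold of 830. Sce, the ubiquitin ligase of PRC1, and Scm had best joint scores of 54 and 64.

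For PRC2, 4 of 8 genes had a joint peak. E(z), the methyltransferase, had a peak in its 5′ UTR 60 bp from the TSS (chr3L:10637908-10638231), with 117 in the joint list, 33.8 in replicate 1 and 83.5 in replicate 2. Of the joint peaks it lay nearest to a member's own TSS, followed by that of Sfmbt (57.0) at 92 bp. The stronger peak of brm (428) lay 142 bp from the brm TSS. Caf1-55, a histone binding subunit that PRC2 shares with other complexes, had 752 in the joint list, 341 in replicate 1 and 406 in replicate 2. That summit lay 3968 bp from the Caf1-55 TSS, past the end of the gene, and 121 bp upstream of mRpS10, which encodes a mitochondrial ribosomal protein (chr3R:15229390-15229685). Pcl, a PRC2 accessory protein, was in reach of a peak of 103 (49.3 in replicate 1, 60.8 in replicate 2) that lay 530 bp from the TSS of pAbp, the poly(A) binding protein, and 6479 bp from its own.

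jing, a zinc finger gene of 119787 bp and the longest of the set, held 3 intronic peaks. They had joint signals of 88.1, 54.5 and 47.0 at 35851, 10436 and 15169 bp from a jing TSS, the last of them nearer to CG15233, at 5660 bp. The peak of 88.1 had 44.3 in replicate 1 and 45.2 in replicate 2 and was thresholded in both, whereas the other 2 were thresholded in neither. Su(z)12 had no joint peak, and its best joint score was 69. The list of replicate 2, however, held a peak of 42.3 and the conservative list of both replicates one of 71.3. Each of these had a score of 1000. The remaining genes of the complex were below the threshold, with best joint scores of 766 for esc, 64 for escl and 603 for Jarid2.

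Among the DNA binding proteins and their partners, 3 of 4 genes had a joint peak. phol, a relative of pho, lay in reach of a peak of 410 (193 in replicate 1, 219 in replicate 2), 1516 bp upstream of its TSS and 115 bp upstream of CG3552 (chr3L:9457683-9457913). A weaker peak of 66.0 downstream of phol lay 112 bp upstream of ghi. pho itself, on chromosome 4, had a best joint score of 46, the lowest of the scores among the members without a peak. Sfmbt, the partner of pho, had a peak of 57.0 located 92 bp upstream of its TSS, with 29.4 in replicate 1 and 24.3 in replicate 2. lolal, a BTB protein that acts with the GAGA factor, had a peak of 55.5 in its 5′ UTR, 102 bp from a TSS (17.9 in replicate 1, 35.8 in replicate 2), and one of 3.08 that overlapped it. The Sfmbt peak was in the thresholded list of neither replicate, and those of lolal overlapped a thresholded peak of replicate 2 but none of replicate 1.

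Of the remaining Polycomb genes, calypso, the histone H2A deubiquitinase, had a peak of 75.8 (39.6 in replicate 1, 36.2 in replicate 2), 562 bp upstream of its TSS and 147 bp upstream of CG42837. Its partner Asx and the glycosyltransferase gene sxc had no peak, with best joint scores of 159 and 53. Kdm2, a histone demethylase gene, had none in the thresholded lists used here, but its introns held 3 ranked peaks past the threshold. Those peaks had joint signals of 153, 105 and 77.1, with 69.1, 48.5 and 47.7 in replicate 1 and 80.9, 62.6 and 38 in replicate 2.

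In the COMPASS family, 3 of 5 genes had a joint peak, all of modest signal. trx, a methyltransferase of histone H3, was in reach of a peak of 58.1 that lay 1951 bp upstream of it and 217 bp upstream of red. Its ranked signal was 31.6 in replicate 1 and 26.4 in replicate 2, past the threshold in neither. Its intron 3013 bp from the TSS (chr3R:14283808-14283985) held a ranked peak of 265 (86.6 in replicate 1, 180 in replicate 2) with a score of 1000, which the thresholded lists used here do not hold. The joint ranked list held 68 such peaks, 5 of them at the listed genes (Kdm2, trx and mor). The list of replicate 2 held 1 more peak in trx, of 30.7. trr, another methyltransferase, was in reach of a peak of 57.3 that lay 22 bp from the TSS of CG14818 and 10198 bp from its own. This peak had 54.0 in replicate 1 and no ranked peak in replicate 2. Utx, a histone demethylase, had a peak of 47.6 in its 5′ UTR, 184 bp from a TSS, with 21.4 in replicate 1 and 34.3 in replicate 2. ash2 had a best joint score of 229, and for Set1 the joint ranked list held no peak in reach.

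The strongest of all these peaks lay beside ash1, which encodes another histone methyltransferase. It had 892 in the joint list (rank 3), 425 in replicate 1 and 474 in replicate 2. Its summit lay 8140 bp from the TSS of ash1, just past the end of the gene, and 91 bp upstream of CG14100 (chr3L:19590478-19590766). The value therefore stands at the start of a neighbour, with ash1 running towards it.

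Among the BAP and PBAP remodeller genes, 2 of 4 had a joint peak. brm encodes the ATPase of the complexes and shares an upstream region with Arl1, an Arf-like GTPase gene. The summit between them (chr3L:15982901-15983123) lay 142 bp upstream of brm and 124 bp upstream of Arl1, with 428 in the joint list, 192 in replicate 1 and 237 in replicate 2. osa, which encodes the subunit particular to BAP, had 2 strong peaks deep in its introns. The peak 13946 bp from the TSS (chr3R:17704292-17704533) had 414 in the joint list, 186 in replicate 1 and 228 in replicate 2. The peak 17791 bp from the TSS (chr3R:17700476-17700661) had 280, 110 and 168, and the TSS nearest to it, at 13488 bp, was that of CG31249. Both were thresholded in both replicates. They were the strongest peaks inside the body of a member and more than 5000 bp from its TSS. mor, a core subunit, had none in the thresholded lists used here and a ranked peak of 105 (50.5 in replicate 1, 54.3 in replicate 2) upstream of it and 1159 bp from the TSS of Hel89B. Snr1 had a best joint score of 342.

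Among the other remodellers, kis, a chromodomain helicase gene, had intronic peaks of 171 (74.5 in replicate 1, 97.5 in replicate 2) and 66.9 (28.0 and 51.9). They lay 1569 and 2873 bp upstream of an internal TSS (chr2L:223468-223601 for the stronger), and replicate 1 held a thresholded peak at the stronger one alone. Iswi and dom, ATPases of other remodellers, had best joint scores of 108 and 324. In the Mediator kinase module, skd had 4 peaks, of 57.5, 57.3, 55.9 and 2.67. The peaks of 57.5 and 57.3 lay 333 and 393 bp upstream of a skd TSS, the second of them 88 bp upstream of Pdss2. The peak of 55.9 lay in an intron 16377 bp from the TSS, and that of 2.67 overlapped the peak of 57.3. None of the 4 was thresholded in both replicates. kto, the partner of skd, had a best joint score of 130.

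The 20 genes held 35 pairs of gene and peak over 34 distinct peaks, and 8 of them had more than 1 peak, against 25.5% of all genes with a peak. Of the pairs, 19 lay in the gene, 9 upstream and 7 downstream. In 20 pairs the nearest protein-coding TSS was the member's own and in 15 it was another gene's. For 9 genes (Caf1-55, Pc, Pcl, ash1, brm, calypso, phol, trr and trx) every joint peak was nearer to another gene's TSS. A peak nearest the gene's own TSS was held by 11 of the 38 members, against 12.5% of all genes. A peak in reach was held by 20 of the 38, against 22.9%. Among all genes too, many with a peak in reach thus had none nearest their own TSS. In 15 pairs the summit lay within 1000 bp of the member's own TSS. The counts of pairs were not made over all genes, so they do not set the members apart. Among the 10 strongest member peaks, 5 had their summit within 150 bp of some TSS, and all of these 5 were nearest a gene outside the set. The brm peak among them lay about as near to its own TSS, at 142 bp, as to that of Arl1, at 124 bp. Within 150 bp, a distance chosen after the values were seen, lay 33.5% of the strongest 10% of all peaks and 24.9% of all peaks. Unlike the member peaks, those peaks were not chosen for lying in reach of a gene.

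**Figure D3:**
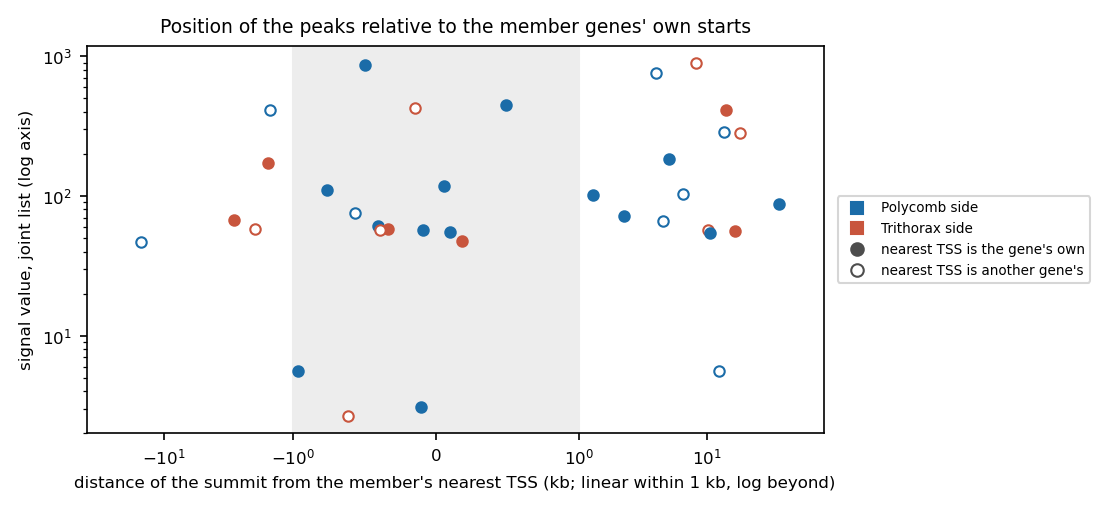
Signal value (log axis) of each joint peak against its distance in kb from the nearest TSS of the member gene (positive downstream), the axis linear within 1 kb (shaded) and logarithmic beyond. Open circles are peaks nearer another gene's TSS; they include the highest value, of ash1, at 8140 bp, and the shaded zone holds 15 of the 35 pairs.

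The count of genes with a peak was read against gene length, since a longer gene has more room for a peak. The members had a median length of 7785 bp, against 2164 bp for all protein-coding genes. Among genes under 10 kb, 11 of 25 members had a joint peak (44.0%), against 19.4% of all such genes. Among genes of 10 kb or more the counts were 9 of 13 (69.2%), against 43.6%. The members' share was thus above that of all genes in both classes. The classes are broad, the upper one holding jing at 119787 bp, and genes were not matched by length within them. A difference in length can therefore remain inside each class. In the conservative list of both replicates 19 of 38 members had a peak (against 22.3% of all genes), in replicate 1 there were 16 (42.1%, against 13.6%) and in replicate 2 there were 19 (against 18.6%). With the ranked peaks past the threshold included, 22 members had a peak (57.9%, against 23.2%). Counting only summits within 1000 bp of a gene's own TSS, 9 members had a peak in the joint list (23.7%, against 13.4%), 6 in replicate 1 (15.8%, against 7.68%) and 8 in replicate 2 (21.1%, against 10.7%). When each peak was given only to the gene with the nearest TSS, 11 members had one, against 12.5% of all genes. Inside the gene body alone 10 of the 38 members had one, against 8.40% of all genes. No test was made of these shares, since the genes were listed with earlier results of these data known.

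**Figure D4:**
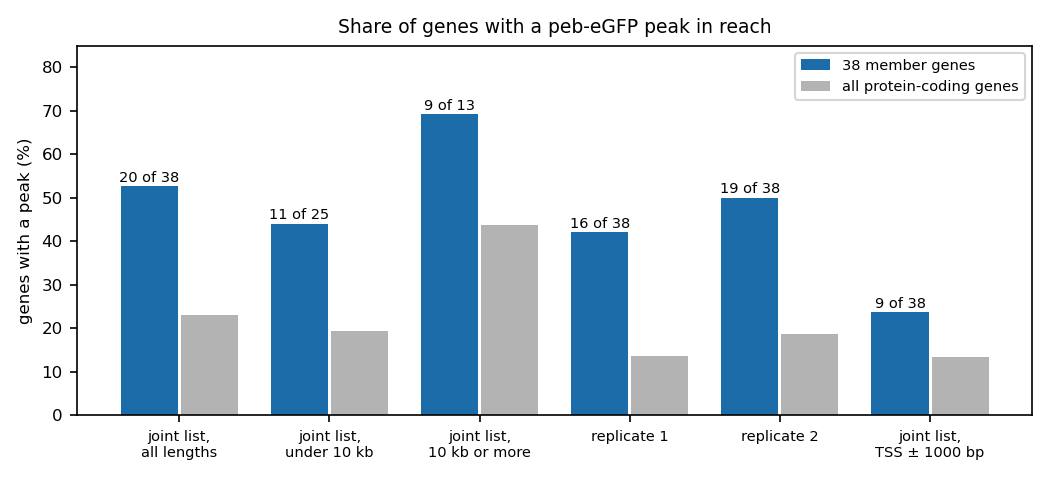
Share of genes (%) with a peak in reach, member genes in blue and all protein-coding genes in grey, for the joint list in all genes and in 2 length classes, for each replicate, and for summits within 1000 bp of a TSS. Numbers above the blue bars are the members with a peak of those counted, from 20 of 38 in the joint list to 9 of 38 at starts.

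The strongest peaks of the 20 members had a median signal of 113 (quartiles 58.0 and 411), against 85.8 (61.7 and 141) over the 3195 genes with a joint peak. The upper quartiles were further apart than the medians, and 8 of the 20 were in the top 10% of the list, against 15.1% of those genes. In replicate 1 the medians were 67.4 for members and 58.0 for all genes with a peak, and in replicate 2 they were 83.5 and 57.1. Taken by peak and not by gene, the 34 member peaks and all 2841 peaks of the main chromosomes had the same median signal, 73.7, and the same median width, 324 bp. Of the 34, however, 10 were in the top 10% of the list by signal, and 3 had a signal under 10. Of the member peaks 17 of 34 were thresholded in both replicates, against 40.8% of all peaks, and 7 in neither (20.6%), against 23.9%. The peaks of 5.57, 3.08 and 2.67 took the replicate values of the stronger peaks they overlapped, and without these 3 the count in both was 16 of 31. Across peaks, which are not replicates, the ranked signals of replicate 1 and replicate 2 gave a Spearman rho of 0.81 over 33 member peaks, against 0.67 over 2791 joint peaks with a value in both. Without peaks that overlap a stronger one, rho was 0.84 over 30 member peaks, against 0.68 over 2645 joint peaks. The 2 sets were not matched for their spread of signal, on which rho depends. Summits within 1000 bp of any protein-coding TSS made up 67.6% of the member peaks and 53.6% of all peaks. The member peaks were chosen for lying in a gene or within 2000 bp of it and all peaks were not, so these 2 shares are not on equal terms.

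**Figure D5:**
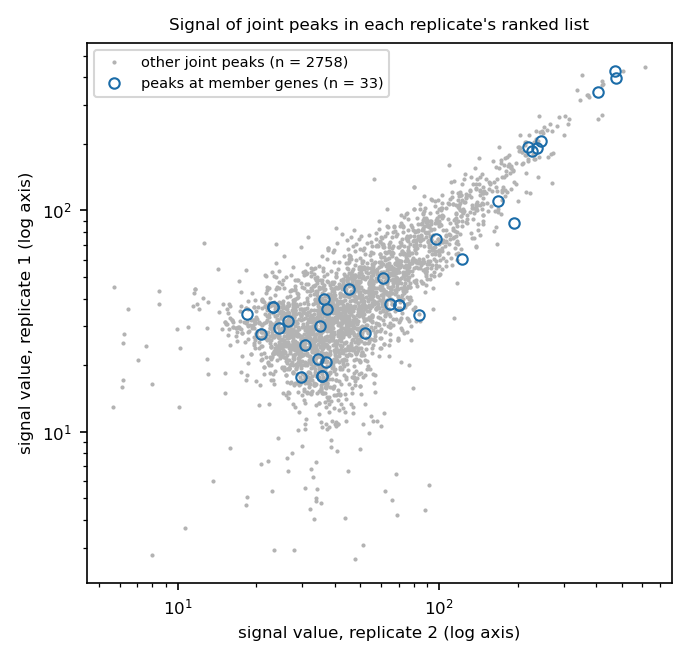
Signal value in replicate 1 against replicate 2 (both log axes) for joint peaks with a ranked peak in both, 33 at member genes as open circles and the others as grey dots. The member peaks span the range, with ash1 (425 in replicate 1, 474 in replicate 2) and ph-p (398 and 476) at the upper end.

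Of 42 other Polycomb and Trithorax related genes, 12 had a joint peak by the same rule (28.6%, against 22.9% of all genes) and 7 had one within 1000 bp of a TSS (16.7%, against 13.4% of all genes). Both shares were near those of all genes. The strongest such promoter peaks were those of Trl, the GAGA factor, with 166 (81.7 in replicate 1, 83.2 in replicate 2), and Dsp1, an HMG box protein, with 132 (70.3 and 61.2). They were followed by nej, a histone acetyltransferase, with 114, Rbbp5, a COMPASS subunit, with 73.3, psq with 57.4 and fs(1)h with 53.4. Trl also held a peak of 505, away from its promoter.

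The summit windows, 100 bp either side, were searched on both strands for 11 short motifs. A match describes letters and not a site of binding. GAGAG, the core of the GAGA factor motif, was found in 11 of 34 member peaks (32.4%), in 24.5% of all peaks and in 22.7% of the windows 1000 bp to either side. GCCAT, the core of the pho motif, was found in 8 (23.5%), against 26.0% of all peaks and 33.6% of the flanks. TATCGATA, the DNA replication-related element, was found in 2, at Sfmbt (in the window shown) and at the phol peak of 66.0, or 5.88%, against 2.57% and 0.474%. TGANTCA was in 4 (11.8%, against 4.72% and 4.39%), GGGCGG in 4 (11.8%, against 4.36% and 7.45%), TGAGTG in 4 (11.8%, against 9.29% and 10.1%) and CCCCAC, a run found in motifs of RREB1, the mammalian relative of peb, in 3 (8.82%, against 4.96% and 6.27%). GTGTGTGT was in 2 (5.88%, against 3.48% and 4.59%), CCGGTT in 1 (2.94%, against 4.01% and 4.30%), and GGTCACAC and CAGGTAG in none (against 1.37% and 0.619%, and 1.06% and 1.02%). The peaks with GGGCGG were the osa peak of 414, the Pc peak of 288, the lolal peak of 3.08 and the skd peak of 2.67. Those of 3.08 and 2.67 overlap stronger peaks and were kept in all these counts. Both also held GAGAG, and that of skd held CCCCAC. With so few member peaks, a difference of 1 or 2 peaks moves each share by several percentage points. For GCCAT, for GGGCGG, for CCGGTT and for CCCCAC, whether the members' share was above or below that of all peaks turned with the window, as with 200 bp either side GCCAT was in 58.8% of the member peaks, against 50.5% of all peaks.

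All 2080 words of 6 bases were also counted under the 2807 peaks outside the set, a search added after the data were seen. Ranked by the difference in share from the flanks, the first was AAATAT, in 50.7% of those peaks and 29.0% of the flanks, and in 17 of the 34 member peaks. The median GC content was 36.8% in the member peaks, 35.3% in the other peaks and 42.3% in the flanks. Rankings in the strongest 10% of the other peaks, with 50 bp either side and words of 6, 7 and 8 bases, also gave words of A and T alone. A ranking by ratio to the flanks, among words in at least 5% of the other peaks, was then chosen after those results, and its first word was ACAGTG. It stood in 10 of the 34 member peaks (29.4%), against 21.1% of the other peaks and 8.27% of the flanks. The member peaks with it were the ph-p peak of 446, that of brm, both of kis, the ph-d peaks of 110 (beyond the stretch shown) and 61.4, that of Pcl, the trx peak of 58.1, the skd peak of 55.9 and a peak of lolal. Of the 10 strongest member peaks 2 held it, against 30.3% of the strongest 10% of all peaks.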

How the data were processed

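Peaks of peb-eGFP ChIP-seq on dm6 were deposited by the authors as lists for each of 2 biological replicates and for both together (joint and conservative). Per the file headers, replicate lists came from that replicate's alignments with a further file, and the thresholded lists from another input of unstated kind. The deposited signal is the authors' value per peak, the deposited score a scaled irreproducible discovery rate capped at 1000, and the ranked lists also hold its −log10. Lists are not on 1 scale. Neither aligner nor peak caller is named in the labels or headers, and read depth is unknown.

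Sonicated fragments were 200 to 800 bp, per the labels. Summits were assigned to genes of Ensembl release 115 (BDGP6.54) with Python 3.11.15, pandas 2.3.3 and numpy 2.4.6. Of the members 37 matched by symbol, and calypso was matched by hand as caly. A replicate's signal is that of its ranked peak overlapping the joint peak, with the nearest summit. Sequences are from the RefSeq copy of Release 6. Assignment was checked on planted peaks. The members and lists were chosen with earlier results of these data known. Every member is named, as are the 6 other related genes with the strongest promoter peaks and genes nearest a member's peak. Counts stand beside all genes, with no test. Other lists, distances, overlaps and windows were tried as alternatives. There were 0 columns of other samples.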

Additional observations from a re-analysis of the deposited data

How the results depend on the processing

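Of 48 recomputed values, 32 stayed within 1.5 times the value reported (for percentiles, within 1 SD between replicates) and 16 did not. That SD, 7.93, was taken from the 2 replicate medians themselves. It is therefore no independent check on the percentiles with 1 replicate left out. The count of members with a peak was 16 without replicate 2 (13.6% of all genes) and 19 without replicate 1 (18.6%). It was 10 with summits inside the gene body alone (8.40% of all genes) and 11 with each peak given only to the gene with the nearest TSS (12.5% of all genes). It was 14 within 1000 bp (18.6% of all genes), 23 within 5000 bp (33.1%), 19 in the conservative list (22.3%), 22 in the ranked list (23.2%), 19 at a score of 1000 (20%) and 20 with any overlapping base (23.4%). The count with a promoter peak was 6 without replicate 2 (7.68% of all genes) and 8 without replicate 1 (10.7%). Within 200 bp of a TSS it was 5, against 7.87% of all genes. The median percentile of the strongest peaks in their list was 68.0 to 79.2 with 1 replicate left out. The count of other related genes with a peak was 8 of 42 without replicate 2 (13.6% of all genes) and 10 of 42 without replicate 1 (18.6%). The motif counts followed the window. With 50 bp either side they were 5 for GAGAG, 4 for GCCAT, 1 for TATCGATA, 1 for GTGTGTGT, 0 for GGGCGG, 0 for CCGGTT and 2 for TGANTCA, and with 200 bp they were 17 for GAGAG, 20 for GCCAT, 5 for GTGTGTGT, 11 for TGAGTG, 7 for GGGCGG and 4 for CCGGTT, as a narrower or wider window holds fewer or more letters. The share was higher in the member peaks than in all peaks in each of these windows for GAGAG, for TATCGATA, for GTGTGTGT, for TGAGTG and for TGANTCA. The share of GGGCGG was lower with 50 bp (0, against 1.72% of all peaks) and higher with 200 bp (20.6%, against 11.6%), as at 100 bp. That of CCGGTT was lower with 50 bp (0, against 1.97%) and at 100 bp and higher with 200 bp (11.8%, against 8.98%). That of CCCCAC was higher with 50 bp (5.88%, against 1.90%) and at 100 bp and lower with 200 bp (11.8%, against 13.4%), and that of GCCAT was lower with 50 bp (11.8%, against 13.1%) and at 100 bp and higher with 200 bp. No paired analysis was possible because there is 1 group. The absence of ranked peaks at trx, Kdm2 and mor from the thresholded lists used here was not tested for a cause, and unknown depth limits what the missing peaks can show.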
